A study of Mus musculus with 16 samples.

Results

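The genes described here encode the proteasome, the protease complex that degrades ubiquitin-tagged proteins. They are the 37 of 23284 gene symbols in the count table that consist of Psma, Psmb, Psmc or Psmd and a number, without Psmb8 and Psmb9. Of these, 17 are core genes (Psma1 to Psma8, Psmb1 to Psmb7, Psmb10 and Psmb11) and 20 are cap genes (Psmc1 to Psmc6 and Psmd1 to Psmd14). The symbols do not select constitutive particle subunits only. They keep Psmb10, an inducible catalytic subunit, Psma8, the core subunit of the testis, and Psmb11, that of the thymus. They also keep Psmd5, Psmd9 and Psmd10, chaperones that leave the cap once it is built. Psma8 had 3 to 18 counts and Psmb11 0 to 4 counts per library, too few to pass the filter on low counts, so 35 members were tested, 15 core and 20 cap genes.

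The proteasome core is a barrel of stacked rings. Its outer rings, of alpha subunits (Psma genes), form the gate, and its inner rings, of beta subunits (Psmb genes), hold the proteolytic sites in Psmb5, Psmb6 and Psmb7. The cap sits on the gate: its base carries a ring of ATPases (Psmc genes) that unfold substrates and thread them into the core, and its lid and scaffold (most Psmd genes) receive ubiquitin chains and cut them off. Inflammatory signals induce Psmb8, Psmb9 and Psmb10, which take the places of Psmb5, Psmb6 and Psmb7 in newly built cores, and in most cells the transcription factor Nfe2l1 raises proteasome genes together when proteasome capacity falls short.

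RNA of the lumbar spinal cord was sequenced from mice 150 days old, with 4 biological replicates in each of 4 groups. The groups are Atg7 cKO; SOD1G93A (cKO_SOD1 below), Atg7 cWT; SOD1G93A (cWT_SOD1), Atg7 cKO (cKO) and Atg7 cWT (cWT). SOD1G93A is a mutant human SOD1 transgene that models amyotrophic lateral sclerosis, and Atg7 is an enzyme that autophagosome formation requires; cKO is read here as conditional knockout. The title of the series places the inhibition in motor neurons, but the labels name neither the Cre driver nor whether the control animals carry it, and the transgene's own transcript was not analysed here. The comparisons ask how proteasome genes in the cord differ with the transgene, with the Atg7 genotype and with both.

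Library totals ran from 14989026 to 20892530 counts. Atg7 itself was at 28.3, 28.8, 28.4 and 26.4 CPM (counts scaled to the TMM library size) in cKO cords, against 35.1, 29.7, 29.9 and 31.0 CPM in cWT cords. These groups do not overlap, but the difference did not pass the test (log2 fold change -0.17 ± 0.12 SE, edgeR adjusted p 0.9995). With the transgene it was at 29.4, 20.4, 29.3 and 29.6 CPM in cKO_SOD1 cords, against 30.3, 23.1, 22.1 and 20.8 CPM in cWT_SOD1 cords, which overlap and lean the other way (0.17 ± 0.12, adjusted p 0.2204), and it was lower in cWT_SOD1 than in cWT cords (-0.38 ± 0.12, adjusted p 0.00839). Whole-cord counts over a whole gene therefore do not check the deletion, and the groups are named by their labels. Lumbar Hox genes were present in all groups (summed CPM of 5 genes 158 to 180.3 in cKO_SOD1, 95.8 to 129 in cWT_SOD1, 171 to 213 in cKO and 174 to 189 in cWT). Of 10 markers of blood, muscle, Schwann cells and dorsal root ganglia, the haemoglobin genes Hba-a1 and Hbb-b1 were at 0 in every group. The summed CPM of these 10 was 57.3 to 150.6 in cKO_SOD1, 72.0 to 129 in cWT_SOD1, 51.7 to 65.9 in cKO and 36.0 to 100.4 in cWT. The haemoglobin genes alone therefore do not show that the cords are free of other tissue. Cell type markers differed strongly between the groups. The summed CPM of 9 neuron markers was 7576 to 8353 in cKO_SOD1, 3654 to 5589 in cWT_SOD1, 10700 to 11230 in cKO and 11304 to 12094 in cWT. That of 10 microglia markers was 873 to 934 in cKO_SOD1, 2412 to 4163 in cWT_SOD1, 417 to 558 in cKO and 434 to 483 in cWT. The library cWT_SOD1 replicate 1 stands apart from its group: its counts differed from the other 3 by a mean chi-square of 15.5 to 41.1 a gene, against 2.88 to 18.4 for other pairs of libraries of a group, and it holds the highest neuron and the lowest microglia sum of the cWT_SOD1 cords. In whole tissue, fewer cells of a type and less RNA per cell cannot be told apart.

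The members lie on 16 chromosomes. The promoters of 5 cap genes are printed because these are the 4 cap genes that were lowest in cWT_SOD1 relative to cWT cords (Psmc5, Psmd5, Psmd12 and Psmc1) and the 1 cap gene that rose there (Psmd8). Each window holds 250 bases before and 50 after the annotated start, from RefSeq on GRCm38.p6, 5′ to 3′ in the direction of the gene. Capitals mark the matches to the motifs described after them.
Psmc5 (chr11:106255935-106256234, plus strand): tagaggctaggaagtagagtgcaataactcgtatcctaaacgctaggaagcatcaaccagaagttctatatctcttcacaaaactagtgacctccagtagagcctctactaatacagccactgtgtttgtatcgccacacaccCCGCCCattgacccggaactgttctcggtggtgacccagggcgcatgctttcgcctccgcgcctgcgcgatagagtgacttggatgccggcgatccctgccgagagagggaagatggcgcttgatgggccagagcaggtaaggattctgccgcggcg
Psmc1 (chr12:100109952-100110251, plus strand): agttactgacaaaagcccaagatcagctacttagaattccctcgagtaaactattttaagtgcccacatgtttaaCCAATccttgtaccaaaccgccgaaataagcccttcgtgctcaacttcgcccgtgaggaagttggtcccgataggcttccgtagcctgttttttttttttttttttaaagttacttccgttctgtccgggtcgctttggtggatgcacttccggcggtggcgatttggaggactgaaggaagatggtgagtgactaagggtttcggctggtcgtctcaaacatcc
Psmd5 (chr2:34870913-34871212, minus strand): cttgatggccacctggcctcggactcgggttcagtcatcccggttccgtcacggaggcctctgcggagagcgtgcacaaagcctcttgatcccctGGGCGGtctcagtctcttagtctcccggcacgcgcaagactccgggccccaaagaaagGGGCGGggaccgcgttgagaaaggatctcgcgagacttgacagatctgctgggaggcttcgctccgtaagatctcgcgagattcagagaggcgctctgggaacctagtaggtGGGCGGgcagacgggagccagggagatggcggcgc
Psmd12 (chr11:107479278-107479577, plus strand): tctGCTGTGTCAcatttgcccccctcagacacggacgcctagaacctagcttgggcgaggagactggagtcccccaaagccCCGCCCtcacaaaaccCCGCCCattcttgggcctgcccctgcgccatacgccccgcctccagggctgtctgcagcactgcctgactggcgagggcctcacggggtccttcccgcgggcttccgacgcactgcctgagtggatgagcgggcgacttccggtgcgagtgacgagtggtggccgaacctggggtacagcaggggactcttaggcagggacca
Psmd8 (chr7:29180624-29180923, minus strand): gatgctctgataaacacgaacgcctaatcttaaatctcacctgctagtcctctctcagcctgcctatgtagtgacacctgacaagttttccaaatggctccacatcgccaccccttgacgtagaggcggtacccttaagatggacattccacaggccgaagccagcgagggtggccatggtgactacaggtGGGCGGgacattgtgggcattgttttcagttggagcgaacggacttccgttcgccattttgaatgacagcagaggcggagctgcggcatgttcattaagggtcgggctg
On both strands, the windows were searched for TGACNNNGC (the core of the antioxidant response element, bound by Nfe2l1 and Nfe2l2 with small Maf proteins), CCAAT (bound by NF-Y) and GGGCGG (the GC box). The promoters of Psmd5 and Psmd8 hold the GC box on the gene's strand, those of Psmc5 and Psmd12 on the other strand, and that of Psmc1 holds only CCAAT, 175 bases before the start. Psmd12 alone of these 5 genes has the antioxidant motif, 247 bases before its start; no 2 matches in these windows overlap. Windows were found for 30 of the 37 members. The antioxidant motif occurred in 5 of these 30 (Psmb5, Psmb6, Psmc6, Psmd9 and Psmd12), against 14.0% of 27025 genes with windows of the same length. CCAAT occurred in 12 of the 30, 7 of 13 core and 5 of 17 cap genes, against 41.1% of all genes. The GC box occurred in 18 of the 30, 5 of 13 core and 13 of 17 cap genes, against 38.2% of all genes.

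Levels of different genes are compared as FPKM (fragment counts per transcript length and depth). In cWT cords the ATPase gene Psmc5 had the highest level, 243 ± 8.22 FPKM (SD, n = 4), followed by the beta genes Psmb4 at 175 ± 15.4, Psmb7 at 169 ± 16.1 and Psmb1 at 148 ± 14.2 FPKM; Psmb4 and Psmb7 lie within each other's spread. The lowest tested members were the chaperone genes Psmd9 (10.03 ± 0.810 FPKM) and Psmd10 (16.2 ± 1.72 FPKM) and the alpha gene Psma3 (20.3 ± 1.85 FPKM). Within the cWT cords the highest level exceeded the lowest 24.3-fold among cap genes and 8.61-fold among core genes. The cap range includes the chaperone genes. The lowest cap gene other than these was Psmd11, at 22.1 ± 0.502 FPKM. In cWT_SOD1 cords Psmc5 was at 161 ± 17.1 FPKM, and Psmb4, at 158 ± 2.09 FPKM, lies within the spread of Psmc5. Psma8 averaged 0.185 FPKM in cKO_SOD1, 0.585 in cWT_SOD1, 0.224 in cKO and 0.215 in cWT cords, levels that rest on at most 18 counts. It was tested in 15 alternatives only. In 13 of these, which left out 1 library, it passed the filter through the cWT_SOD1 libraries in which it is high, and the others used no filter. It was called in all 15, higher in cWT_SOD1 than in cWT cords (1.095 to 1.463) and lower in cKO_SOD1 than in cWT_SOD1 cords (-1.897 to -1.245). Calls that rest on such a filter carry no weight.

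**Figure D1:**
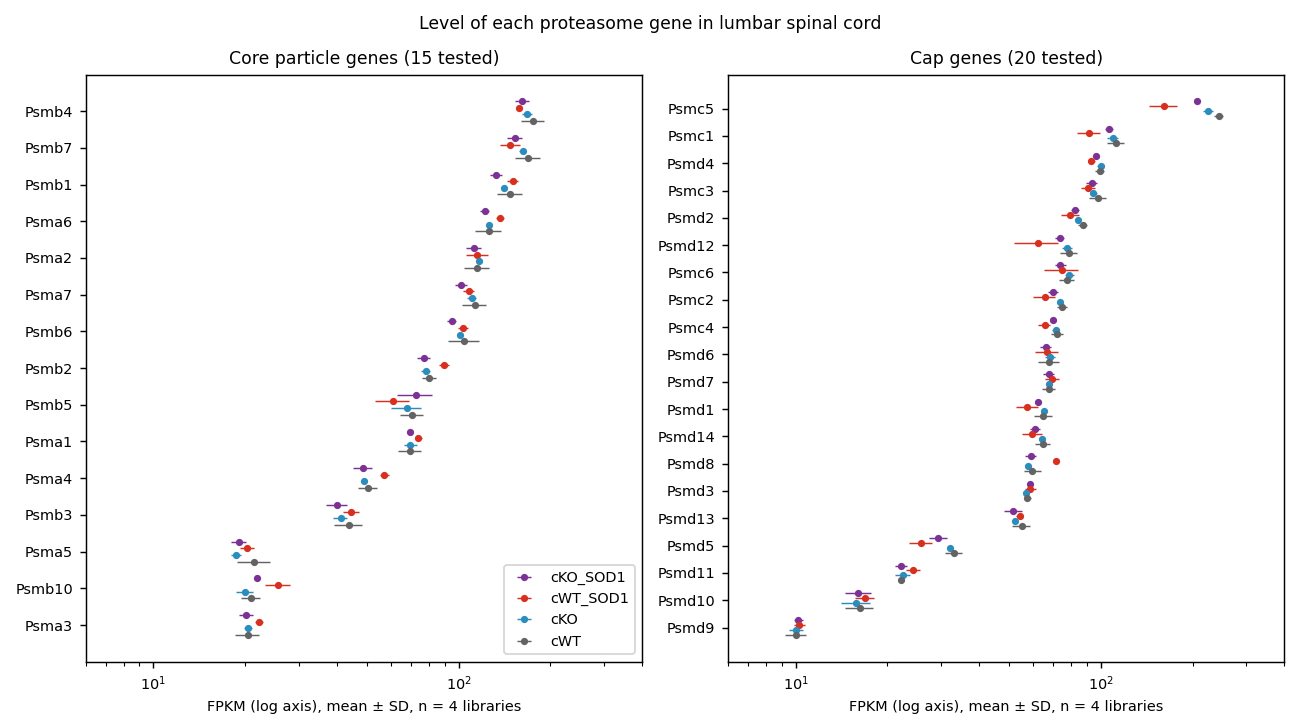
Mean FPKM with SD (4 libraries a group, log axis) of the tested core genes and cap genes in the 4 groups. Psmc5 stands at the top in all groups, at 243 FPKM in cWT cords, and Psmd9 at the bottom with 10.03 FPKM in cWT cords.

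The transgene with intact Atg7 (cWT_SOD1 against cWT) went with lower RNA of many cap genes and small differences in both directions among core genes. Of the 35 members tested, 17 passed the edgeR quasi-likelihood test at a Benjamini-Hochberg adjusted p under 0.05, 3 higher and 14 lower, in a comparison in which 66.3% of all genes passed, 33.2% higher and 33.1% lower. Cap genes account for 12 of these 17, of which 11 fell and 1 rose, and core genes for 5, of which 3 fell and 2 rose. The median log2 fold change was -0.13 over the cap genes and 0.01 over all genes tested. That of the core genes was -0.04, but its sign turns with FPKM values (0.03) and without cWT replicate 4 (0.05), so the core as a whole has no direction here. The changes were small: the median absolute log2 fold change was 0.128 over the members and 0.365 over all genes, and Psmc5 was the only member beyond 1.5-fold, against 32.5% of all genes.

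Among the cap ATPases, 5 of 6 fell and none rose. Psmc5 (mm9 chr11:106117499-106124426) was at 190.1, 160.0, 161 and 185 CPM in cWT_SOD1 cords, against 277, 259.6, 265 and 285 CPM in cWT cords. All cWT_SOD1 libraries lie below all cWT libraries, and the level was 0.641-fold (log2 fold change -0.64 ± 0.06, adjusted p 3.47e-08); 11.8% of all genes had a log2 fold change as low. Psmc1 (mm9 chr12:101350541-101361574), whose tail helps open the core's gate in yeast, was at 128, 112, 114 and 117 CPM in cWT_SOD1 cords, against 150.3, 136, 147 and 163 CPM in cWT cords. Again the groups do not overlap (log2 fold change -0.34 ± 0.05, adjusted p 3.04e-05). Psmc2 (-0.22 ± 0.05), Psmc4 (-0.19 ± 0.05) and Psmc3 (-0.15 ± 0.05) also fell, Psmc2 and Psmc4 without overlap, while Psmc6 was at -0.09 (adjusted p 0.233). Psmc6 was called lower without cWT_SOD1 replicate 1 (-0.15). The summed CPM of the 6 ATPases was 666 to 761 in cWT_SOD1 cords and 840 to 948 in cWT cords. The call of Psmc3 was lost in 7 of 26 alternatives: without cWT_SOD1 replicate 2 (-0.13), cWT_SOD1 replicate 3 (-0.12) or cWT replicate 4 (-0.10), with these groups alone (-0.13) and in the 3 fits of FPKM values (-0.10 in each).

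Of the 11 other cap subunits, 5 fell and 1 rose. Psmd12 (mm9 chr11:107340842-107359350), a scaffold subunit of the lid, was at 116, 85.9, 86.8 and 96.7 CPM in cWT_SOD1 cords, against 119.5, 119.6, 124 and 138 CPM in cWT cords. The groups do not overlap, though cWT_SOD1 replicate 1 comes close to the cWT libraries (log2 fold change -0.38 ± 0.08, adjusted p 2.94e-04). Psmd1 (-0.22 ± 0.05) and Psmd2 (-0.18 ± 0.05), the large scaffold subunits of the base, the ubiquitin receptor Psmd4 (-0.12 ± 0.04) and the deubiquitinase Psmd14 (-0.16 ± 0.05) fell too. Psmd8 (mm9 chr7:29959206-29965692), the subunit that completes the lid in yeast, rose instead: it was at 88.5, 96.0, 104 and 95.6 CPM in cWT_SOD1 cords, against 77.6, 74.6, 81.6 and 87.3 CPM in cWT cords. These groups do not overlap (1.197-fold, log2 fold change 0.26 ± 0.06, adjusted p 6.21e-04). The lid genes Psmd3, Psmd6, Psmd7 and Psmd13 had log2 fold changes from -0.07 to -0.01 and did not pass the test, nor did Psmd11 (0.10, adjusted p 0.101), whose groups do not overlap. Psmd11 was called higher in the 3 fits of FPKM values (0.13 to 0.14). Without cWT_SOD1 replicate 2, Psmd14 (-0.12) and Psmd4 (-0.10) lost their calls, and Psmd4 (-0.09) also without cWT replicate 4. Both lost them with these groups alone (-0.15 and -0.11), and Psmd14 also in the 3 fits of FPKM values (-0.12 to -0.11).

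Of the 3 chaperone genes, Psmd5 (mm9 chr2:34707609-34726482) fell. It was at 52.2, 43.6, 46.4 and 48.5 CPM in cWT_SOD1 cords, against 61.0, 63.9, 59.7 and 69.96 CPM in cWT cords, with no overlap (0.749-fold, log2 fold change -0.42 ± 0.06, adjusted p 1.37e-05). Psmd9 and Psmd10 were both at 0.00 on the log2 scale. Over all members, 2 were higher and 10 lower without overlap between the groups, where 27.6% and 28.9% of all genes were.

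**Figure D2:**
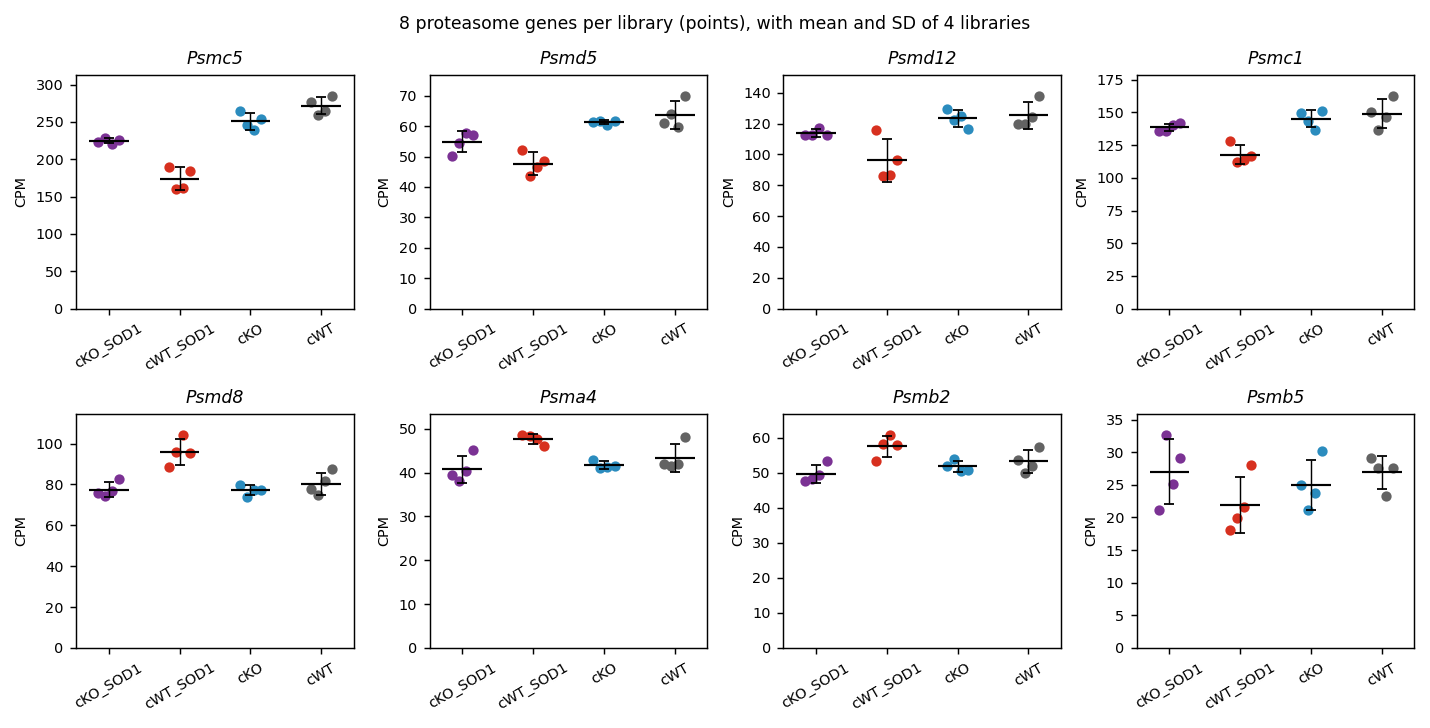
CPM of 8 members in each library (points) by group. The group means of Psmc5, Psmc1, Psmd5 and Psmd12 are lowest in cWT_SOD1 cords, where that of Psmd8 is highest, with libraries at 88.5 to 104 CPM. In Psmd5 and Psmd12, cWT_SOD1 replicate 1 lies among the cKO_SOD1 libraries.

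Core genes moved less. The alpha gene Psma4 (mm9 chr9:54798666-54805837), whose tail closes the gate in yeast, was at 48.5, 48.3, 47.7 and 46.1 CPM in cWT_SOD1 cords, against 42.0, 41.5, 42.0 and 48.2 CPM in cWT cords; cWT replicate 4 lies among the cWT_SOD1 values (log2 fold change 0.13 ± 0.06, adjusted p 0.0493). Psma7 fell (-0.13 ± 0.06, adjusted p 0.049991), with 73.5 to 76.2 CPM in cWT_SOD1 cords against 75.6 to 92.2 CPM in cWT cords. Both calls sit at the threshold: of the 16 fits that left out 1 library, Psma4 lost its call in 11 (0.11 to 0.19 over the 16) and Psma7 in 12 (-0.17 to -0.07), Psma7 being at -0.07 without cWT replicate 4. Over all 26 alternatives Psma4 lost its call in 13 and Psma7 in 21. The other alpha genes tested ranged from -0.16 (Psma5) to 0.12 (Psma3) and did not pass. Psma5 was called without cWT replicate 3 (-0.20) and Psma6 without cWT replicate 4 (0.14). Of the structural beta genes, Psmb4 fell (-0.19 ± 0.06, adjusted p 0.0093, no overlap), by less without cWT replicate 4 (-0.12). Psmb1, Psmb2 and Psmb3 were between -0.04 and 0.11 and did not pass, though Psmb2 was called higher in 6 of 26 alternatives (0.13 to 0.16). Reads of Psma3, Psma4, Psmb5 and Psmd1 could be shared with genes at overlapping loci (3110056K07Rik, AY074887, Mir686 and Htr2b), since it is not known whether counting used strand.

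The catalytic genes differed among themselves. Psmb7, the trypsin-like site, fell (98.6 to 115 CPM in cWT_SOD1 cords, against 115 to 147 CPM in cWT cords; log2 fold change -0.24 ± 0.07, adjusted p 0.00456). Psmb5, the chymotrypsin-like site, was at 18.0, 19.95, 21.6 and 27.98 CPM in cWT_SOD1 cords, against 29.1, 27.6, 23.3 and 27.6 CPM in cWT cords. Its groups overlap through cWT_SOD1 replicate 4 and cWT replicate 3 (log2 fold change -0.30 ± 0.14, adjusted p 0.0734), and it passed the test without cWT_SOD1 replicate 4 (-0.43), without cWT replicate 3 (-0.37) or with the replicate block (-0.31). Psmb6, the caspase-like site, was at -0.05. The inducible member Psmb10 was at 28.2, 27.7, 26.1 and 32.8 CPM in cWT_SOD1 cords, against 25.2, 23.1, 26.3 and 27.1 CPM in cWT cords, and rose (0.17 ± 0.07, adjusted p 0.0497) with overlap. Its call was lost in 10 of the 16 fits that left out 1 library, with 0.11 without cWT_SOD1 replicate 4, and in 13 of all 26 alternatives.

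A fit of the cWT_SOD1 and cWT libraries alone called 11 members, 1 higher and 10 lower, and a limma fit of log2(FPKM + 0.1) called 16, 5 higher and 11 lower. Without cWT_SOD1 replicate 1 the number was again 17, with 4 core and 13 cap genes. In this comparison 9 of 9 neuron markers and 7 of 7 motor neuron markers were lower and 10 of 10 microglia and 6 of 7 astrocyte markers higher (astrocyte sums 20072 to 24850 CPM in cWT_SOD1 cords, against 7893 to 8301 CPM in cWT cords). Their part in the differences of proteasome genes was not tested.

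**Figure D3:**
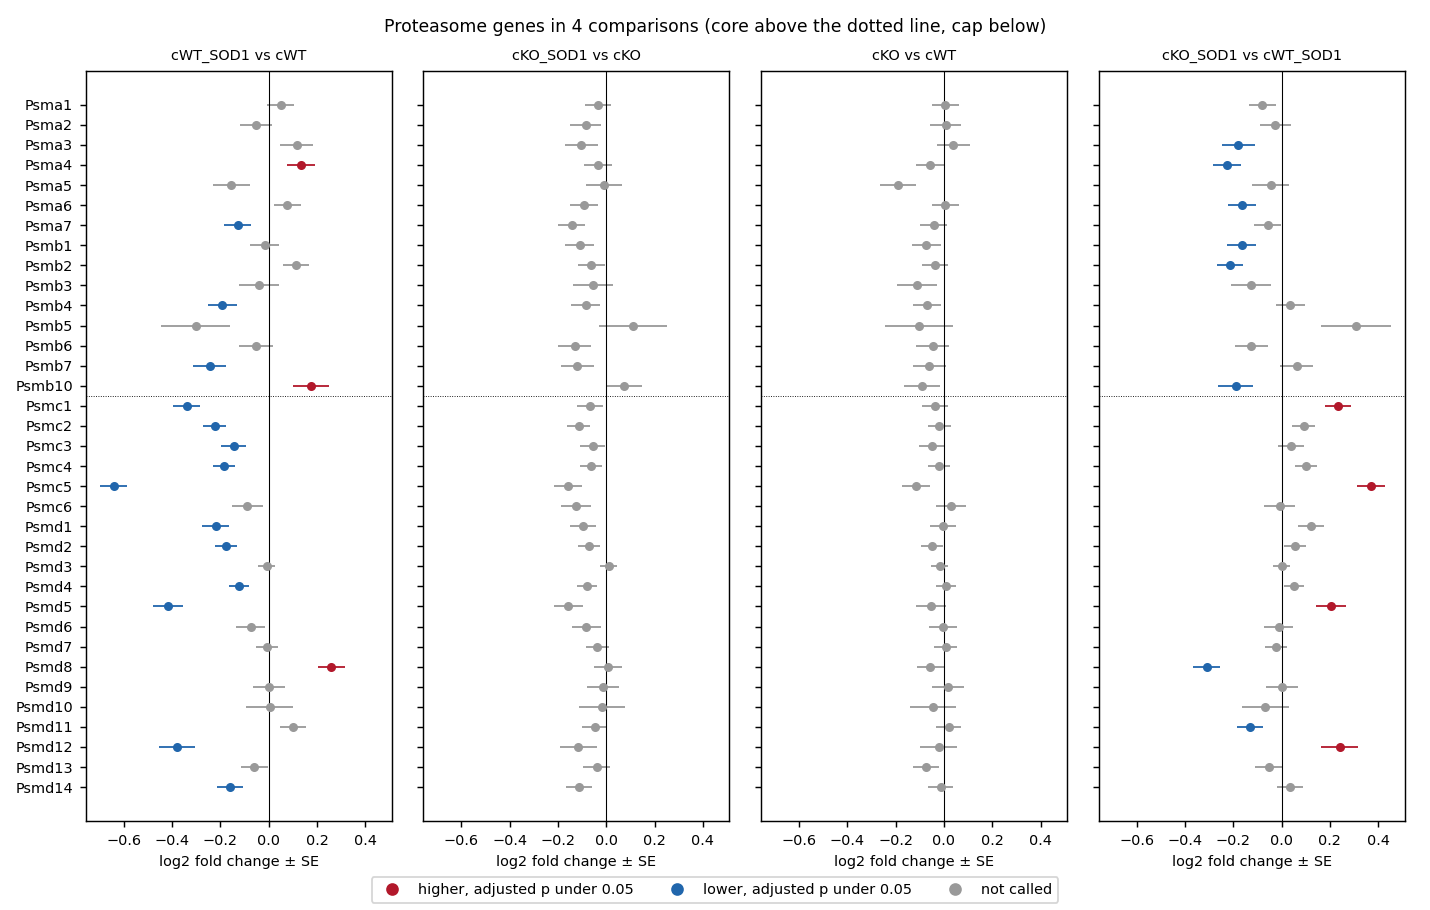
Log2 fold change with SE of each tested member in 4 comparisons, core and cap genes in order of symbol. Red and blue points passed the edgeR test as higher and lower, and grey points did not. Psmc5 is lowest in cWT_SOD1 against cWT at -0.64, and no member passed in cKO_SOD1 against cKO or cKO against cWT.

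With the Atg7 cKO genotype in both arms (cKO_SOD1 against cKO), no member passed the edgeR test, in a comparison in which 7.28% of all genes did. At an unadjusted p under 0.05 there were 5 members, all lower (Psma7, Psmc2, Psmc5, Psmd5 and Psmd14). The share of all genes at that p is not given here, so this count has no background beside it. DESeq2 and limma also called 0. Of the 35 members, 31 had a log2 fold change below 0, as had between 47.2% and 51.7% of all genes. Members ranged from -0.16 to 0.11, with medians of -0.08 over core and -0.07 over cap genes, and 0.00 over all genes. Both medians shrank to -0.04 in the limma fit of log2(FPKM + 0.1), and that of the core to -0.05 without cKO_SOD1 replicate 1. Psmc5 was at 224, 229, 220.4 and 226 CPM in cKO_SOD1 cords, against 265, 246, 239 and 254 CPM in cKO cords (log2 fold change -0.16 ± 0.06, adjusted p 0.113). Psmd5 was at 50.2, 54.5, 57.8 and 57.1 CPM in cKO_SOD1 cords, against 61.4, 61.5, 60.4 and 61.7 CPM in cKO cords (-0.16 ± 0.06, adjusted p 0.146). Psma7, an alpha subunit, was at 69.0, 69.6, 73.1 and 74.6 CPM in cKO_SOD1 cords, against 79.4, 83.1, 76.8 and 77.1 CPM in cKO cords (-0.14 ± 0.06, adjusted p 0.136). In these 3 genes every cKO_SOD1 library lies below every cKO library, as in 9 members in all (Psma6, Psma7, Psmb6, Psmc2, Psmc5, Psmc6, Psmd1, Psmd5 and Psmd14), where 11% of all genes were lower without overlap.

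These differences are small but lie mostly on 1 side. A fit of the cKO_SOD1 and cKO libraries alone called 5 members, all lower, among them Psma7, Psmb6 and Psmc5, and leaving out cWT replicate 4, which is in neither group but enters the shared spread, called Psma7 (adjusted p 0.0443). In this comparison 6 of 9 neuron markers and 7 of 7 motor neuron markers were lower (motor neuron sums 162 to 211 CPM in cKO_SOD1 cords, against 408 to 472 CPM in cKO cords) and 8 of 10 microglia markers higher. Their part in the differences of proteasome genes was not tested.

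The cKO genotype without the transgene (cKO against cWT) showed no member past the edgeR test, where 0.0259% of all genes passed. DESeq2 and limma called 0 members. With no difference at all, a share of 0.05 of genes would reach an unadjusted p under 0.05, and 1 member did. This was Psma5, an alpha subunit, at 15.7, 15.7, 14.7 and 15.4 CPM in cKO cords, against 17.2, 16.4, 15.9 and 20.5 CPM in cWT cords (log2 fold change -0.19 ± 0.08, edgeR adjusted p 0.9995). All cKO libraries lie below all cWT libraries in Psma5 and in no other member, where 1.93% of all genes were lower without overlap. The next smallest p-values were those of Psmc5 (-0.12) and the lid gene Psmd13 (-0.07), and the members ranged from -0.19 to 0.04. Without cWT replicate 4, whose 20.5 CPM stands above the other cWT libraries in Psma5, Psma5 was at -0.10 and Psmd13 at -0.02. The median SE of a member was 0.06 on the log2 scale.

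With the transgene in both arms (cKO_SOD1 against cWT_SOD1), 4 cap genes were higher and 6 core and 2 cap genes lower in cKO_SOD1 cords. These are 12 of 35 members, in a comparison in which 58.2% of all genes passed, 29.1% in each direction. Medians were -0.12 over core and 0.04 over cap genes, and -0.01 over all genes; the cap median was 0.01 without cWT_SOD1 replicate 2. Without cWT_SOD1 replicate 1, 14 members passed, 7 core and 7 cap genes. This comparison shares the cWT_SOD1 libraries with that of cWT_SOD1 against cWT, and each is given with its own values.

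The 4 cap genes that were higher are the ATPases Psmc5 and Psmc1, the lid gene Psmd12 and the chaperone gene Psmd5. Psmc5 was at 224, 229, 220.4 and 226 CPM in cKO_SOD1 cords, against 190.1, 160.0, 161 and 185 CPM in cWT_SOD1 cords (1.29-fold, log2 fold change 0.37 ± 0.06, adjusted p 3.1e-05). Psmc1 was at 136, 136, 140.3 and 142 CPM in cKO_SOD1 cords, against 128, 112, 114 and 117 CPM in cWT_SOD1 cords (0.23 ± 0.05, adjusted p 0.00139). In both genes the groups do not overlap. Psmd12 was at 113, 113, 117 and 112 CPM in cKO_SOD1 cords, against 116, 85.9, 86.8 and 96.7 CPM in cWT_SOD1 cords, so that cWT_SOD1 replicate 1 lies among the cKO_SOD1 values (0.24 ± 0.08, adjusted p 0.0121). Psmd5 (0.20 ± 0.06, adjusted p 0.00967) overlaps too, since cKO_SOD1 replicate 1 at 50.2 CPM lies below cWT_SOD1 replicate 1 at 52.2 CPM. Without cWT_SOD1 replicate 2 the calls of Psmd12 (0.18, adjusted p 0.0625) and Psmd5 (0.15, adjusted p 0.0537) were lost.

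Psmd8 was the member furthest down: it was at 75.9, 74.6, 77.0 and 82.5 CPM in cKO_SOD1 cords, against 88.5, 96.0, 104 and 95.6 CPM in cWT_SOD1 cords (0.807-fold, log2 fold change -0.31 ± 0.06, adjusted p 1.5e-04), with no overlap. Among alpha genes, Psma4 was at 39.3, 38.0, 40.4 and 45.2 CPM in cKO_SOD1 cords, against 48.5, 48.3, 47.7 and 46.1 CPM in cWT_SOD1 cords (-0.23 ± 0.06, adjusted p 0.0028), again without overlap. The beta gene Psmb2 (mm9 chr4:126354887-126386959), a structural subunit, was at 47.7, 48.2, 49.4 and 53.3 CPM in cKO_SOD1 cords, against 53.5, 58.2, 60.8 and 57.8 CPM in cWT_SOD1 cords, where the highest cKO_SOD1 value lies just below the lowest cWT_SOD1 value (-0.21 ± 0.05, adjusted p 0.0027). Psma3 (-0.18), Psma6 (-0.16), Psmb1 (-0.17), Psmb10 (-0.19) and Psmd11 (-0.13) also fell, with adjusted p from 0.0196 to 0.0429. Over all members, 2 were higher and 7 lower without overlap, where 25% and 24.1% of all genes were.

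The remaining core genes did not pass. Psmb5 was at 21.2, 32.6, 25.2 and 29.1 CPM in cKO_SOD1 cords, against 18.0, 19.95, 21.6 and 27.98 CPM in cWT_SOD1 cords (log2 fold change 0.31, edgeR adjusted p 0.0746). It passed with the replicate block (0.31), without cKO_SOD1 replicate 1 (0.40) or without cWT_SOD1 replicate 4 (0.44), and Psmb6 passed without cWT_SOD1 replicate 1 (-0.16, adjusted p 0.0499). Of the fits that left out 1 library, 12 of 16 lost the call of Psmd11 (-0.16 to -0.10), 4 that of Psma3 (-0.21 to -0.15; cKO_SOD1 replicates 1 and 2, cWT_SOD1 replicates 2 and 4) and 4 that of Psmb10 (-0.23 to -0.13; cKO_SOD1 replicates 1, 2 and 3, cWT_SOD1 replicate 4). Psmb1 lost its call in 3 (-0.20 to -0.14; cKO_SOD1 replicates 1 and 2, cWT_SOD1 replicate 3) and Psma6 in 1 (-0.14 without cWT_SOD1 replicate 3). Over all 26 alternatives Psmd11 lost its call in 16, Psma3 in 8 and Psmb10 in 6. Beside these differences, 9 of 9 neuron markers were higher and 10 of 10 microglia and 6 of 7 astrocyte markers lower in cKO_SOD1 than in cWT_SOD1 cords. Motor neuron markers did not move with the neuron markers: 1 of 7 was higher and 2 lower, with a median of -0.08. Of the oligodendrocyte markers 4 of 7 were higher and 1 lower. The part of these markers in the differences was not tested.

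The interaction, (cKO_SOD1 - cWT_SOD1) - (cKO - cWT) on the log2 scale, tests whether the genotype difference depends on the transgene. It passed for 4 members, all cap genes, where 45% of all genes passed: 3 were positive and 1 negative, against 23.2% and 21.8% of all genes. Psmc5 had 0.48 ± 0.08 (edgeR adjusted p 1.42e-04), Psmc1 0.27 ± 0.08 (adjusted p 0.00814), Psmd5 0.26 ± 0.09 (adjusted p 0.0228) and Psmd8 -0.25 ± 0.08 (adjusted p 0.0159). In Psmc5, Psmc1 and Psmd5 the genotype difference was thus more positive with the transgene than without it, and in Psmd8 more negative. No core gene passed: the smallest p-values of the alpha and beta rings were those of Psma3 (-0.22, adjusted p 0.0738) and Psmb2 (-0.17, adjusted p 0.0729), and Psmb5 had 0.41 (adjusted p 0.106). Psmd12 had 0.26 (adjusted p 0.0553).

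The number of interaction calls depends on single libraries: without cWT replicate 4 it was 10, 3 higher and 7 lower, and without cWT_SOD1 replicate 1 or cKO_SOD1 replicate 4 it was 7. Leaving Psma8 aside, the genes gained without cWT replicate 4 were the core genes Psma3, Psma4, Psma6, Psmb1 and Psmb2, all negative. Those gained without cKO_SOD1 replicate 4 were Psma4 and Psmb2. Psma8 is counted among the calls of both fits. It passed the filter there only through the cWT_SOD1 libraries in which it is high, so its negative calls carry no weight. Without cWT_SOD1 replicate 1 they were Psmb2 and the cap genes Psmc2 and Psmd12. Among all 25 alternatives Psma3 passed in 2 (-0.27 and -0.26), Psmb2 in 6 (-0.21 to -0.19, the 3 fits of FPKM values among them) and Psmb5 in 3 (0.51 to 0.55; without cKO_SOD1 replicate 1, cKO replicate 4 or cWT_SOD1 replicate 4). A limma fit of log2(FPKM + 0.1) called 5, 3 higher and 2 lower. Psmc5, Psmc1 and Psmd8 passed in all 25 alternatives run, while Psmd5 was not called without cWT_SOD1 replicate 2 (0.21), without cKO_SOD1 replicate 3 (0.23) or with log2(FPKM + 0.1) and no filter (0.22).

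The RNA of cap genes relative to core genes was lowest in cWT_SOD1 cords. The summed FPKM of the cap genes over that of the core genes was 1.105 ± 0.0291 in cKO_SOD1, 0.988 ± 0.0469 in cWT_SOD1, 1.11 ± 0.0148 in cKO and 1.104 ± 0.0409 in cWT cords (SD, n = 4 each). The values ran from 1.07 to 1.14 in cKO_SOD1, from 0.947 to 1.05 in cWT_SOD1, from 1.09 to 1.13 in cKO and from 1.05 to 1.14 in cWT cords. All cWT_SOD1 libraries lie below all cKO_SOD1 and cKO libraries, while cWT_SOD1 replicate 1 reaches past the lowest cWT library, replicate 4. Summed core FPKM averaged 1246.5 ± 54.3 in cKO_SOD1, 1314 ± 33.4 in cWT_SOD1, 1289 ± 6.22 in cKO and 1326.5 ± 112 in cWT cords, and summed cap FPKM averaged 1376 ± 24.9 in cKO_SOD1, 1298 ± 84.1 in cWT_SOD1, 1428 ± 13.1 in cKO and 1461 ± 66.1 in cWT cords. Psmc5 carries much of the lower cap sum of cWT_SOD1 cords: with it left out, which was chosen after the data were seen, the ratio was 0.939 ± 0.0223 in cKO_SOD1, 0.865 ± 0.0369 in cWT_SOD1, 0.933 ± 0.00796 in cKO and 0.920 ± 0.0317 in cWT cords. The difference of cWT_SOD1 from cWT cords was then -0.0545 in place of -0.1162. The core sums of cWT_SOD1 and cWT cords differ by less than the spread between libraries. Members took 0.306% of all counts in cKO_SOD1, 0.301% in cWT_SOD1, 0.316% in cKO and 0.324% in cWT cords, and cWT replicate 4 had the highest share, 0.351%. As sums over members chosen with results known, these have no test.

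**Figure D4:**
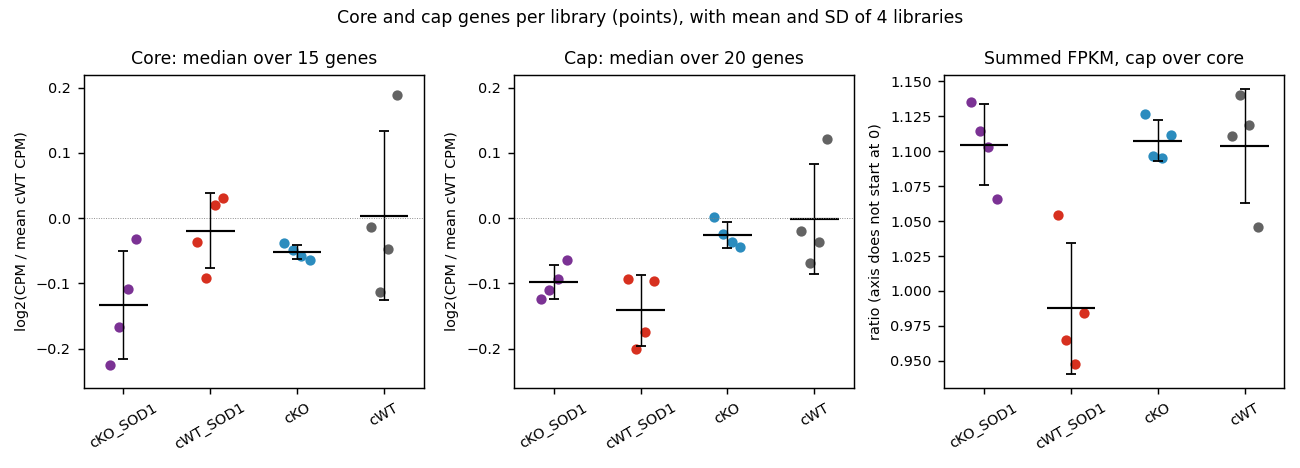
For each library, the median over core genes and over cap genes of log2(CPM over the mean cWT CPM), and the summed FPKM of cap over core genes, by group. The cap over core ratio of the cWT_SOD1 libraries runs from 0.947 to 1.05, and that of the other groups from 1.05 to 1.14.

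In cWT_SOD1 cords the inducible catalytic genes rose relative to the constitutive ones whose places they take. Psmb8 and Psmb9, which the symbols above leave out, were 5.53-fold and 4.21-fold higher in cWT_SOD1 than in cWT cords (log2 fold changes 2.47 ± 0.15 and 2.07 ± 0.21). The FPKM of Psmb8 as a percentage of that of Psmb5 was 9.57 ± 0.648% in cKO_SOD1, 33.0 ± 4.14% in cWT_SOD1, 5.35 ± 0.824% in cKO and 4.97 ± 1.05% in cWT cords. For Psmb9 over Psmb6 it was 3.92 ± 1.44% in cKO_SOD1, 9.93 ± 1.44% in cWT_SOD1, 2.05 ± 0.457% in cKO and 2.24 ± 0.187% in cWT cords. For Psmb10 over Psmb7 it was 14.3 ± 0.535% in cKO_SOD1, 17.3 ± 1.53% in cWT_SOD1, 12.3 ± 1.08% in cKO and 12.4 ± 0.582% in cWT cords. In each of the 3 pairs all cWT_SOD1 libraries lie above all libraries of the other groups. Constitutive genes stayed the more abundant in every group.

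Each ratio was compared by a two-sided exact permutation test over the 70 assignments of 4 against 4 libraries, which cannot go below p = 0.0286, with adjustment over 12 tests. All 3 ratios differed at this smallest p (adjusted p 0.0429) between cWT_SOD1 and cWT, by 2.75, 2.14 and 0.48 on the log2 scale for Psmb8, Psmb9 and Psmb10. They also differed at this p between cKO_SOD1 and cWT_SOD1, by -1.78, -1.39 and -0.27. Between cKO_SOD1 and cKO, Psmb8 over Psmb5 (0.85) and Psmb9 over Psmb6 (0.90) passed, and Psmb10 over Psmb7 (0.22) did not (exact adjusted p 0.0762). As a single gene, Psmb9 (0.76) was not called by edgeR between cKO_SOD1 and cKO, though it was in 10 of 26 alternatives. Psmb9 over Psmb6 was 6.04% in cKO_SOD1 replicate 3, against 2.90, 3.18 and 3.58% in the other cKO_SOD1 libraries. None of the ratios passed between cKO and cWT (exact adjusted p 0.549 to 0.857). The interaction of the single genes passed for Psmb8 (-1.58, edgeR adjusted p 2.92e-05) and Psmb9 (-1.31, adjusted p 0.0026).

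**Figure D5:**
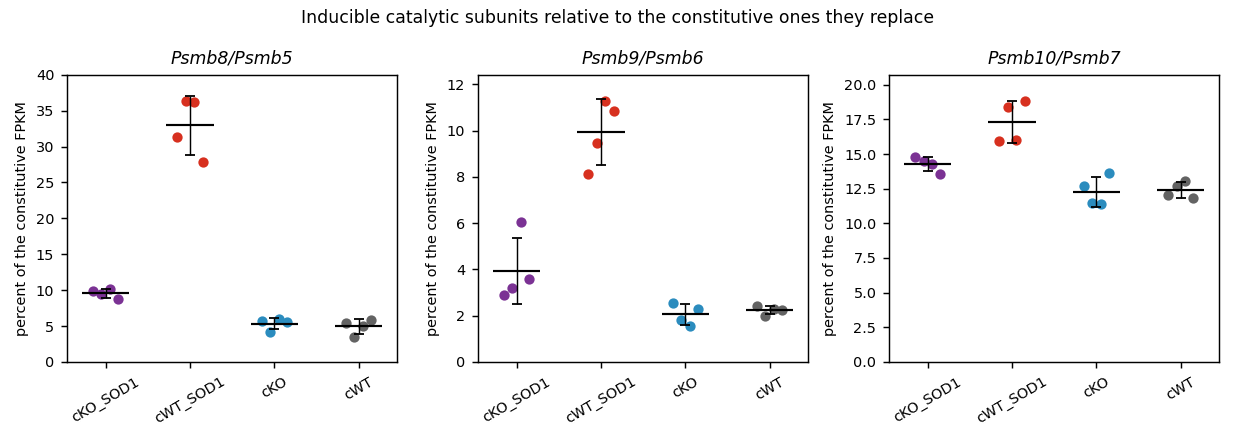
FPKM of Psmb8, Psmb9 and Psmb10 as a percentage of Psmb5, Psmb6 and Psmb7 in each library, with group means and SD. All cWT_SOD1 libraries lie above those of the other groups, at 33.0% on average for Psmb8 over Psmb5 and 17.3% for Psmb10 over Psmb7.

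Genes that work with the particle moved in both directions. Of 10 further subunits, activators and partners tested, 4 rose and 4 fell in cWT_SOD1 relative to cWT cords. Psme1, a subunit of the interferon-induced activator cap, was at 32.7, 33.5, 36.0 and 33.1 CPM in cWT_SOD1 cords, against 16.8, 16.1, 17.7 and 18.1 CPM in cWT cords (log2 fold change 0.98 ± 0.07, edgeR adjusted p 2.12e-09), and its partner Psme2 rose too (0.67 ± 0.10). Usp14, a deubiquitinase that binds the cap, was at 126, 106, 97.8 and 106 CPM in cWT_SOD1 cords, against 147, 148, 151 and 164 CPM in cWT cords (-0.49 ± 0.06, adjusted p 1.59e-06), and Psme3, the nuclear activator, fell (-0.26 ± 0.05). Uchl5, another cap deubiquitinase (-0.49 ± 0.10), and Shfm1, a small lid subunit (0.19 ± 0.06, adjusted p 0.00645), are named after their values were seen. In cKO_SOD1 relative to cWT_SOD1 cords, 4 of the 10 were higher, among them Usp14 (0.40), Uchl5 (0.42) and Psme3 (0.14), and 3 lower, Psme1 (-0.58), Psme2 (-0.55) and Shfm1 (-0.31). Psme3 lost that call without cWT_SOD1 replicate 2 (0.10) and with these groups alone (0.14). None of the 10 passed in cKO_SOD1 against cKO, where 7.28% of all genes did, or in cKO against cWT, where 0.0259% did. In the interaction 5 of the 10 passed, where 45% of all genes did.

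Of 5 core assembly factors tested, 1 rose in cWT_SOD1 relative to cWT cords, Psmg4 (0.27 ± 0.10, adjusted p 0.0245; 0.23 and not called without cWT replicate 1, 0.28 and not called with DESeq2), and none passed in the other comparisons, though Psmg4 did so in cKO_SOD1 against cWT_SOD1 in 6 of 26 alternatives (-0.24 in the fit of all libraries). Of 7 regulators, 3 rose there and 2 fell. Nfe2l2, which activates oxidative stress genes, was at 87.3, 108, 115 and 104 CPM in cWT_SOD1 cords, against 36.3, 37.6, 40.1 and 38.2 CPM in cWT cords (1.44 ± 0.07, adjusted p 2.84e-11), and the small Maf genes Maff (2.66) and Mafk (1.64) rose too. Nfe2l1 was at 516, 486, 476 and 515 CPM in cWT_SOD1 cords, against 584, 574, 583 and 599.7 CPM in cWT cords (-0.23 ± 0.04, adjusted p 1.42e-04), and Ddi2, the protease that activates its product, fell (-0.31). In cKO_SOD1 relative to cWT_SOD1 cords, Nfe2l1 was higher (0.16), and Nfe2l2 (-1.03), Maff (-2.07) and Mafk (-1.28) were lower. In cKO_SOD1 relative to cKO cords only Nfe2l2 of the 7 passed (0.43, adjusted p 8.43e-04).

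Of 11 ubiquitin, activating enzyme and shuttle genes counted, 6 fell and none rose in cWT_SOD1 relative to cWT cords. Ubqln2, a shuttle that carries ubiquitinated proteins to the cap, was at 178, 157, 144 and 165 CPM in cWT_SOD1 cords, against 235, 238, 254 and 234 CPM in cWT cords (-0.58 ± 0.06, edgeR adjusted p 6.99e-08). Its relative Ubqln4 (-0.55 ± 0.05) and the ubiquitin-activating enzymes Uba6 (-0.47 ± 0.05) and Uba1 (-0.28 ± 0.04) fell too. In cKO_SOD1 relative to cWT_SOD1 cords 5 of the 11 were higher and none lower: Ubqln2 (0.53), Ubqln4 (0.39), Uba6 (0.35), Uba1 (0.27) and Ubqln1 (0.21). Of the 11, none passed in cKO_SOD1 against cKO or cKO against cWT, and 4 passed in the interaction, all positive. The counts in this list and in those before it stand beside the share of all genes that passed. This share was 66.3% in cWT_SOD1 against cWT and 58.2% in cKO_SOD1 against cWT_SOD1. It was 7.28% in cKO_SOD1 against cKO, 0.0259% in cKO against cWT and 45% in the interaction.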

How the data were processed

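Per the labels' protocols, cords were frozen, RNA was taken up in Trizol and cleaned on a column, and poly-A RNA went into Illumina TruSeq libraries. Names given by the submitters' processing notes are Cufflinks 2.0.2, TopHat2 2.0.4, bcl2fastq 1.8.4 and the build mm9; which tool made the counts, and whether it used strand, is not given in the sources used here. Raw counts of 23284 gene symbols in 16 libraries were deposited by the authors. FPKM values of 23699 entries, which allow for length and depth, were deposited too; the series table and the table of each library held the same values. Gene positions are in mm9, from those tables, and promoters are RefSeq windows on GRCm38.p6.

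The test of the counts was that of edgeR 4.0.16 under R 4.3.3 (TMM, filterByExpr, quasi-likelihood F-test, all 16 libraries in 1 fit with a coefficient per group), which left 15426 genes. Benjamini-Hochberg adjustment ran over all of them, and genes were called at an adjusted p under 0.05. An SE is the absolute log2 fold change over the square root of F, an approximation. Python 3.11.15, SciPy 1.17.1, pandas 2.3.3 and matplotlib 3.10.9 did the rest. The procedure was tested on simulated counts. The labels do not say whether replicate numbers pair the animals or mark a batch. Of 24 same-numbered pairs of libraries of 2 groups, 11 had a correlation of deviations over 0.1, with a range of -0.25 to 0.31. Pairs with different numbers reached 0.28 (cKO_SOD1 replicate 3 with cKO replicate 4). This check cannot decide the question, so the replicate block was an alternative only. Libraries of a group differed beyond sampling noise (mean chi-square 2.88 to 41.1 a gene), and no library is a duplicate. Alternatives tried were RLE and upper-quartile scaling, no filter, DESeq2 1.42.0, the compared groups alone, a replicate block, sex as a term, 3 fits with limma 3.58.1 on log2(FPKM + 0.1) or log2(FPKM + 1), with FPKM of at least 1 in 4 libraries or no filter, and leaving out each of the 16 libraries. Sex was inferred from the counts of Xist against those of Y-linked genes. A cap sum without Psmc5 was added after the data were seen.

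The members, lists and tests were chosen with earlier results of these data known, and 135 of 136 listed genes were matched (Paaf1 was not). A further gene of the list of ubiquitin and shuttle genes is not reported here and is left out of its counts. A rule names the 3 highest and 3 lowest called members of a comparison and the catalytic genes. It also names the member with the smallest p of each of the alpha, beta, ATPase and other cap classes in cKO_SOD1 against cWT_SOD1 and in the interaction. Where fewer than 5 members are called, it adds those with the 3 smallest p-values. Values per library are given for most of these genes, but not in every comparison. Psma3, Psmb6, Psmb8 and Psmb9 have no CPM per library here, and Psmb7 has ranges only. By this rule up to 4 called genes of each further list are named. Uchl5, Shfm1, Ddi2 and Ubqln1 are named outside it.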

Additional observations from a re-analysis of the deposited data

Results flagged for a closer look

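Single libraries stood apart from the other 3 of their group in 4 of 112 groups of values tested (28 genes in 4 groups each). In Psma4, cWT replicate 4 was at 48.2 CPM. In Psmd11, cKO replicate 2 was at 40.1 CPM. In Psmd12, cKO_SOD1 replicate 3 was at 117 CPM, and in Psmd13, cKO replicate 1 was at 76.3 CPM. In each, the gap to the nearest library was over Dixon's 95% limit, which chance passes in about 1 of 20 groups.

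The genotype difference with the transgene differed from that without it, by the interaction test, in Psmc5 (log2 0.48), Psmc1 (0.27), Psmd5 (0.26), Psmd8 (-0.25), Psmb8 (-1.58) and Psmb9 (-1.31); adjusted p-values stand with each gene above.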

How the results depend on the processing

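In cWT_SOD1 against cWT, 17 members were called; the fit of these groups alone called 11, and leaving out 1 library gave 12 to 18. In all 26 alternatives Psmc5, Psmc1, Psmc2, Psmc4, Psmd1, Psmd2, Psmd5, Psmd8, Psmd12, Psmb4 and Psmb7 were called with the same sign. In cKO_SOD1 against cKO, 0 members were called; the fit of these groups alone called 5, leaving out 1 library gave 0 to 1, and the cap median of -0.07 was -0.0387 in both log2(FPKM + 0.1) fits and -0.0384 with log2(FPKM + 1), and the core median of -0.08 was -0.0407 with log2(FPKM + 0.1) and -0.0398 with log2(FPKM + 1). The fit of the groups alone takes its spread from the libraries of those groups only. The cause of these differences was not tested. In the interaction, leaving out 1 library gave 3 to 10 calls; this comparison has no fit of its groups alone. The core genes gained there are Psma3, Psma4, Psma6, Psmb1, Psmb2 and Psmb5, beside Psma8. These ranges of calls count Psma8 where it was called. It passed the filter in those fits only through the cWT_SOD1 libraries in which it is high, so its calls carry no weight. Signs were followed only for single genes that were called, catalytic or had the smallest p-values in a comparison. Among these, signs reversed in 4 results when 1 library was left out. Psmb6 in cWT_SOD1 against cWT (-0.1215 to 0.0222 over the 16 libraries) was positive without cWT replicate 4. In cKO against cWT, Psmb6 (-0.1125 to 0.0309) and Psmb7 (-0.1132 to 0.0084) were positive without cWT replicate 4. Psmb8 (-0.0546 to 0.1858) was negative there without cWT replicate 2 or cKO replicate 4 (-0.0376). None of these 4 results was called in any fit. The signs of other members were not followed, and the medians that turned without cWT replicate 4 show that further members changed sign. Medians and ratios near 0 turned too: without cWT replicate 4 the core median of cWT_SOD1 against cWT (0.0488) and the core (0.0058) and cap (0.0114) medians of cKO against cWT were positive, the cap minus core median of cKO_SOD1 against cKO (0.0157) was -0.0103 without cKO_SOD1 replicate 2 and -0.0054 without cKO_SOD1 replicate 1, and in cKO against cWT Psmb8 over Psmb5 was negative without cWT replicate 2 (-0.0431) and Psmb10 over Psmb7 was positive without cKO replicate 3 (0.0178), cKO replicate 2 (0.0155) or cWT replicate 3 (0.0085). Without Psmc5, an alternative chosen after the data were seen, the difference of cap over core summed FPKM between cWT_SOD1 and cWT was -0.0545 in place of -0.1162. With the replicate block, 17 members were called in cWT_SOD1 against cWT, 0 in cKO_SOD1 against cKO and 0 in cKO against cWT. It called 13 (6 higher, 7 lower) in cKO_SOD1 against cWT_SOD1 and 4 in the interaction. Whether the numbers pair the animals or mark a batch is not known, so these are no sign of stronger or weaker effects. Over all genes, cKO_SOD1 against cKO gave 685 to 2480 calls, the most in the fit of its groups alone, and cKO against cWT 17 with DESeq2. Depth limits Psma8 and Psmb11, which have at most 18 counts in a library.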
